A study of Homo sapiens with 12 samples.

Results

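The 10 genes described here belong to the BCL2 family of apoptosis regulators, and their transcripts were followed in 2 human prostate cancer cell lines treated with palbociclib, an inhibitor of the kinases CDK4 and CDK6, or with its solvent dimethyl sulfoxide (DMSO). They are BCL2, BCL2L1, MCL1, BAX, BID, BCL2L11, BBC3, PMAIP1, BIK and BMF. They were taken by name from the DU145 count table and by the same gene identifier from the C4-2 count table, as 10 of 57167 genes in the former and of 61860 in the latter, and all 10 were found in both. The labels give 4 groups of 3 libraries, 1 palbociclib group and 1 DMSO group for each of the lines C4-2 and DU145. C4-2 was derived from the LNCaP line as a castration-resistant subline, and DU145, which came from a metastasis in the brain, is known to lack functional RB1, the main target of CDK4 and CDK6. DU145 is also known to carry frameshifted BAX alleles that leave it without BAX protein, so its BAX transcript level does not report on protein. All cells grew in the same serum-supplemented medium, and neither the palbociclib dose nor the time of exposure is given in the sources used here. The series asked how these kinases act on STING signalling with and without RB1, and the BCL2 family comparison set palbociclib against DMSO within each line and then compared the 2 responses.

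The family decides whether the outer membrane of the mitochondrion is opened. BCL2, BCL-XL (encoded by BCL2L1) and MCL1 are antiapoptotic and hold the pore-forming effectors BAX and BAK in check. The BH3-only proteins BIM (BCL2L11), PUMA (BBC3), NOXA (PMAIP1), BID, BIK and BMF bind the antiapoptotic members or the effectors and favour opening, after which cytochrome c is released and caspases are activated. MCL1 and NOXA are short-lived proteins, and NOXA binds MCL1 with preference over BCL2. BCL2 family proteins are also drug targets, and prostate cancer cells commonly depend on BCL-XL and MCL1.

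Libraries held 2608851 to 3489659 counts in the C4-2 table and 16108999 to 16674393 in the DU145 table, 5.33 times as many on average. All values of the third C4-2 DMSO library were 0, so it was left out and 11 libraries were used. A count of 0 in 1 library allows up to 0.86 to 1.15 CPM (the count relative to its library's total) for C4-2 and 0.18 to 0.186 CPM for DU145, counting error only. Of 9 luminal prostate genes, KLK3, KLK2, ACP3 and FOLH1 had 0 counts in the libraries labelled C4-2, and the other 5 had counts. DU145 had 0 counts for KLK3, KLK2, FOLH1 and TMPRSS2. The 9 genes summed to 37.3 to 46.4 CPM in the libraries labelled C4-2 and to at most 35.4 CPM in DU145. In the libraries labelled C4-2, 6 mesenchymal genes summed to 24679 to 27140 CPM, against 319 to 376 CPM in DU145. The libraries labelled C4-2 are called C4-2 below by their label only. Epithelial marker genes, 5 of 5 with counts, also moved with treatment: they summed to 412 to 447 CPM with palbociclib and 1045 to 1053 CPM with DMSO in C4-2, and to 2068 to 2213 and 3221 to 3563 CPM in DU145. Their part in the results was not tested. Within DU145 the libraries numbered 3 stood apart, with a chi-square per degree of freedom of 5.41 to 8.34 against the others of their group where 1 is counting noise, but without both of them the same number of the 10 genes, 7, was called. In bulk libraries a smaller share of cells holding a transcript and less of it per cell cannot be told apart.

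In C4-2, palbociclib was accompanied by more PMAIP1, MCL1 and BBC3 transcript and by less BAX, BCL2, BID and BMF. In DU145 it was accompanied by more BAX, BCL2, PMAIP1 and MCL1 and by less BMF, BIK and BCL2L1. MCL1 and PMAIP1 rose and BMF fell in both lines, whereas BAX and BCL2 were called in opposite directions. Under other processing or with libraries left out, the calls of MCL1 and BAX were kept in both lines. Those of BCL2, BBC3, BID and BMF in C4-2 and of PMAIP1 in DU145 were lost in some of these fits. Calls are those of edgeR's quasi-likelihood test at an adjusted p under 0.05 over all genes tested. In C4-2, 9 of the 10 genes passed the low-count filter and 7 were called, 3 higher and 4 lower, in a comparison where 51.8% of all 11943 tested genes were called (25.2% higher, 26.6% lower). In DU145 all 10 were tested and 7 were called, 4 higher and 3 lower, against 58.1% of 15361 genes (28.8% higher, 29.2% lower). With backgrounds this high, being called does not by itself set a family member apart from other genes. The CPM of the 2 treatment groups did not overlap for 7 of 9 tested genes in C4-2 (66.1% of all tested genes) and for 6 of 10 in DU145 (62.7%).

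**Figure D1:**
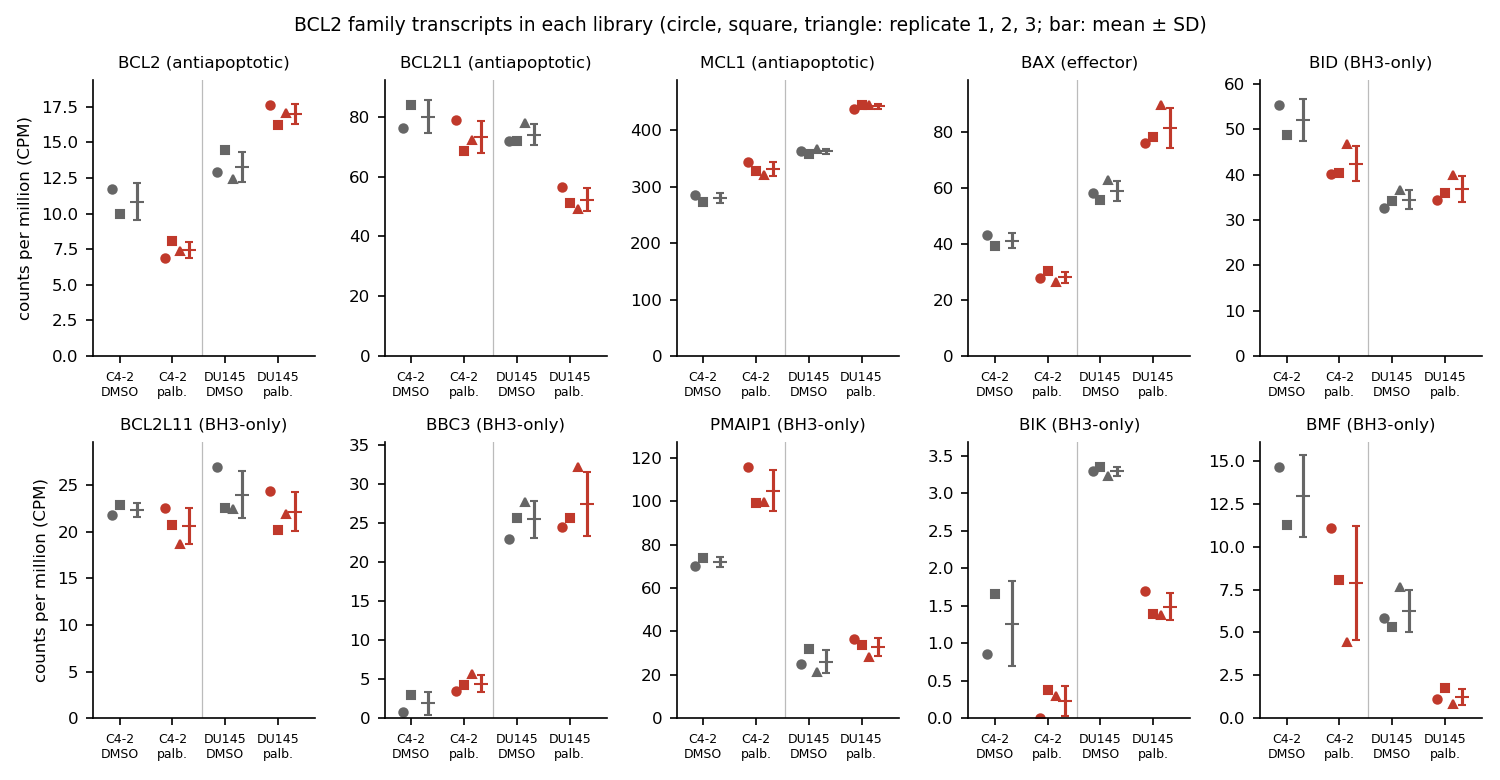
CPM (y axis, from 0) of the 10 genes in each of 11 libraries; marker shape gives the replicate number, and the bar beside the points gives the mean and SD of each group. BAX sits lower with palbociclib in all C4-2 libraries and higher in all DU145 libraries, and BMF is lowest in the 3 DU145 palbociclib libraries.

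The sequences just upstream of 4 of these genes are shown because their transcripts moved in 3 different ways: PMAIP1 rose and BMF fell in both lines, BCL2L1 was called, lower, in DU145, and BAX changed in opposite directions. They are from RefSeq (GRCh38.p14), which held entries for 8 of the 10 genes, 14 entries in all; MCL1 and BIK had none. Each window is the 250 bases before the RefSeq start, shortened where the gene as placed in the DU145 table begins earlier. PMAIP1 is chr18:59899746-59899947 (plus strand), BMF chr15:40108893-40109129 (minus strand), BCL2L1 chr20:31723990-31724213 (minus strand) and BAX chr19:48954625-48954814 (plus strand). All are written 5′ to 3′ on the gene's strand, with capitals for CACGTG in BAX and ACGTCA in PMAIP1.
PMAIP1: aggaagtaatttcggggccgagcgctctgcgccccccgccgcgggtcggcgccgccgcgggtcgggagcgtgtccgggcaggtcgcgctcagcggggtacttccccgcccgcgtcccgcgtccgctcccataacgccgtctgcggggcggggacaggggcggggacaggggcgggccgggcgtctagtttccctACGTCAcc
BMF: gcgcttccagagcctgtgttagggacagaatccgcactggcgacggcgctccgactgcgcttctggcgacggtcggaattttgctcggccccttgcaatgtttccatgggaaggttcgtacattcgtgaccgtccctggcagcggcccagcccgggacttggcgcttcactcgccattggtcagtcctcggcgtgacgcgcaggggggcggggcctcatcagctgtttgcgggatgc
BCL2L1: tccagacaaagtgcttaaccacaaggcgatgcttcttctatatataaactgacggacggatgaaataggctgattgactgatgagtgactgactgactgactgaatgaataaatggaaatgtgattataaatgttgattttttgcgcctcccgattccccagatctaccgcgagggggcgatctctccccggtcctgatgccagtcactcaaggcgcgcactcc
BAX: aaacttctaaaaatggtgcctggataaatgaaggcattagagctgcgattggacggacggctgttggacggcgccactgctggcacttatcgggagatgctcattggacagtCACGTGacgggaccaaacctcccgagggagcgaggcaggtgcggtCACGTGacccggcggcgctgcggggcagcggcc

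The full 250 bases were searched on both strands for the E-box CACGTG, the CRE TGACGTCA and its half-site ACGTCA (which the full site contains), the AP-1 site TGANTCA, the FOXO site GTAAACA, the E2F sites TTTCGCGC, TTTGGCGC, TTTCCCGC and TTTGCCGC, the ATF4 composite TGATGNAA and the GC box GGGCGG. The BAX window held 4 copies of CACGTG, which start 138, 93, 45 and 14 bases before the RefSeq start; the first 2 lie in the stretch printed above. At least 1 copy was present in 6.34% of 35116 RefSeq promoter windows of that length. At least 4 were present in 5 of them (0.0142%), the BAX window included. A p53 half-site, present in 5.57% of windows, was also searched for and was found in no window of these genes. The PMAIP1 window held ACGTCA 56 bases before the start, a sequence present in 7.10% of windows, and 4 GC boxes, present in 42.6%. BBC3 held CACGTG at 232 and TGAGTCA at 113 bases (TGANTCA, 6.57%), and BCL2L11 held GTAAACA at 223 bases (2.98%). Of the 5 BID windows, 2 held CACGTG, at 106 and 47 bases before their starts, and 4 held GC boxes. The first BMF window held only a GC box, and the BCL2L1 and BCL2 windows held none of the motifs. A match describes letters and not a bound site, and the data hold no measurement of binding.

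Levels between genes can be compared per kilobase of gene length. MCL1 had the highest level in all 4 groups, at 63.9 ± 1.92 CPM per kilobase in C4-2 with DMSO (SD, n = 2) and 82.9 ± 0.99 in DU145 with DMSO (SD, n = 3). PMAIP1 came next in C4-2 with DMSO at 32.2 ± 1.08 CPM per kilobase, before BCL2L1 at 24.2 ± 1.64, BAX at 15.9 ± 1.05 and BID at 11.7 ± 1.04, with no overlap of libraries between neighbours. In DU145 with DMSO, BAX at 22.8 ± 1.40 and BCL2L1 at 22.3 ± 1.03 CPM per kilobase overlapped, and PMAIP1 followed at 11.7 ± 2.34. BCL2 itself was among the lowest, at 0.92 ± 0.11 CPM per kilobase in C4-2 and 1.13 ± 0.09 in DU145 with DMSO, and overlapped with BIK and BBC3 in the former and with BMF in the latter. BBC3, the lowest of the 10 in C4-2 with DMSO at 0.60 ± 0.47 CPM per kilobase, was at 8.02 ± 0.74 in DU145 with DMSO and overlapped there with BID at 7.76 ± 0.45. With palbociclib the order kept MCL1 and PMAIP1 first in C4-2, at 75.8 ± 2.71 and 46.9 ± 4.15 CPM per kilobase, and MCL1 and BAX first in DU145, at 101.1 ± 0.90 and 31.4 ± 2.79. BMF moved to the last place in DU145 with palbociclib, at 0.23 ± 0.09 CPM per kilobase, below BCL2 at 1.44 ± 0.06. Gene lengths are those of the DU145 table, used for both lines, and include exon bases shared with other genes, 43.0% of them in BCL2L1. Where reads in shared bases were counted for neither gene, the level of BCL2L1 and its place in the order are too low. The tables were counted separately, so levels set across lines carry that difference too.

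**Figure D2:**
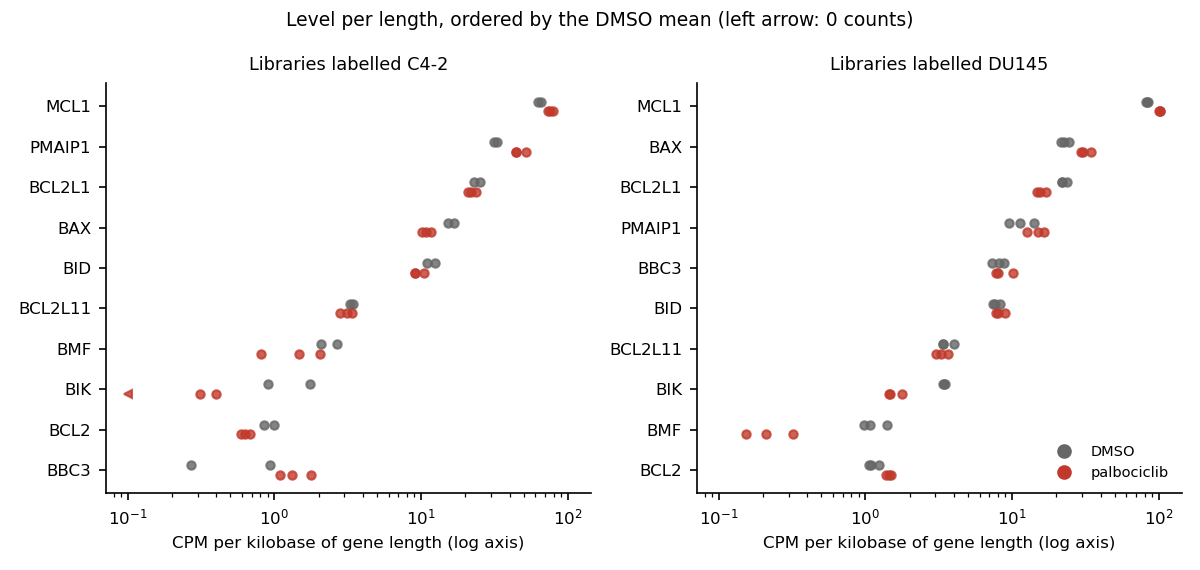
Level of each gene in CPM per kilobase of gene length (log axis) in each library, with genes ordered by their DMSO mean within each line and colour giving the treatment; a left arrow at the edge marks a library with 0 counts. MCL1 is highest in both lines, at 63.9 and 82.9 CPM per kilobase with DMSO.

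Of the antiapoptotic genes, MCL1 rose in both lines, BCL2 fell in C4-2 and rose in DU145, and BCL2L1 fell in DU145. Values per library are given in the order of replicate numbers. BCL2, on chromosome 18 (63123346 to 63320128, minus strand), stood at 11.7 and 9.95 CPM in the 2 C4-2 DMSO libraries (41 and 30 counts) and at 6.92, 8.05 and 7.40 CPM (20, 21 and 25 counts) in those with palbociclib. The groups did not overlap, and the log2 fold change was -0.60 ± 0.25 (SE; edgeR adjusted p = 0.0388). This call is weak: it was lost in 7 of 11 alternatives, among them DESeq2 (adjusted p = 0.258) and the fits without palbociclib replicate 1 (0.103), palbociclib replicate 3 (0.0774) or DMSO replicate 1 (0.269). In DU145, BCL2 was at 12.9, 14.5 and 12.4 CPM with DMSO and at 17.6, 16.3 and 17.1 CPM with palbociclib. All palbociclib libraries were above all DMSO libraries, with a log2 fold change of 0.38 ± 0.11 (edgeR adjusted p = 0.00502), and this call was kept in all 13 alternatives.

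MCL1, on chromosome 1 (150574551 to 150579738, minus strand), was at 285 and 274 CPM with DMSO and at 344, 328 and 321 CPM with palbociclib in C4-2. The DU145 values were 363, 358 and 366 CPM with DMSO and 437, 444 and 444 CPM with palbociclib. The groups were apart in both lines, by a log2 fold change of 0.20 ± 0.05 in C4-2 (edgeR adjusted p = 0.00067) and 0.31 ± 0.06 in DU145 (0.000151). These are small steps, 1.15-fold and 1.24-fold, in the most abundant transcript of the 10, and both calls were kept in every alternative run.

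BCL2L1, which encodes BCL-XL and lies on chromosome 20 (31664452 to 31723989, minus strand), did not pass the test in C4-2. There it was at 76.2 and 83.9 CPM with DMSO and 78.9, 68.6 and 72.2 CPM with palbociclib, and the groups overlapped (log2 fold change -0.17, 95% interval -0.35 to 0.01; edgeR adjusted p = 0.104). In DU145 it fell from 72.0, 72.0 and 77.9 CPM to 56.5, 51.2 and 49.2 CPM. That is a log2 fold change of -0.48 ± 0.08 (edgeR adjusted p = 4.81e-05) with no overlap, called in all 13 alternatives. In the GENCODE 29 annotation 43.0% of the exon bases of BCL2L1 are shared with the antisense gene ABALON, which had 0 counts in C4-2 and, in DU145, 26 to 48 counts with DMSO and 67 to 82 with palbociclib. C4-2 was counted with no strand option and against Ensembl annotation 107, in which exon sharing was not examined. Whether DU145 was counted by strand is not given. Where the counting used no strand, reads in the shared bases cannot be told apart and may be counted for neither gene. The ABALON counts, beside 821 to 1278 of BCL2L1 in DU145, thus do not measure how many such reads arose. The part of such reads in the BCL2L1 values was not tested.

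The effector BAX (chromosome 19, 48954815 to 48961798, plus strand) fell in C4-2 and rose in DU145. With DMSO it was at 43.0 and 39.1 CPM in C4-2, and with palbociclib at 27.7, 30.3 and 26.3 CPM. In DU145 the DMSO libraries were at 58.2, 55.7 and 62.8 CPM and the palbociclib libraries at 76.1, 78.1 and 89.4 CPM. The groups were fully apart in each line and in opposite order. The log2 fold change was -0.60 ± 0.13 in C4-2 (edgeR adjusted p = 8.4e-05) and 0.49 ± 0.08 in DU145 (6.95e-05), that is 0.657-fold and 1.40-fold, and both calls were kept in all alternatives. BAK1, which encodes the other main effector and was read beside BAX whatever its result, moved likewise: 47.1 to 47.6 CPM with DMSO against 35.6 to 39.9 CPM with palbociclib in C4-2, and 29.7 to 34.5 against 50.2 to 57.1 CPM in DU145. Its log2 fold change was -0.35 ± 0.11 in C4-2 (edgeR adjusted p = 0.00903) and 0.73 ± 0.09 in DU145 (1.46e-06). The C4-2 call of BAK1 was lost with DESeq2 (adjusted p = 0.136) and without DMSO replicate 1 (0.0544).

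Among the BH3-only genes, PMAIP1 rose and BMF fell in both lines, BBC3 rose and BID fell in C4-2, BIK fell in DU145, and BCL2L11 was not called in either line. PMAIP1, which encodes NOXA (chromosome 18, 59899948 to 59904306, plus strand), was at 70.2 and 73.6 CPM with DMSO and at 116, 99.3 and 99.8 CPM with palbociclib in C4-2. The groups were apart, with a log2 fold change of 0.50 ± 0.08 (edgeR adjusted p = 3.82e-06), the smallest adjusted p of the 9 genes tested in that line. DU145 libraries were at 25.1, 31.7 and 21.3 CPM with DMSO and 36.6, 33.5 and 28.2 CPM with palbociclib. Here DMSO replicate 2 lay above palbociclib replicate 3, and the log2 fold change of 0.36 ± 0.12 (edgeR adjusted p = 0.0184) was not called without palbociclib replicate 1 (0.1), DMSO replicate 1 (0.0686) or DMSO replicate 3 (0.1).

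BMF encodes a BH3-only protein that is held at the cytoskeleton through the dynein light chain DYNLL2, and lies on chromosome 15 (40087890 to 40108892, minus strand). In DU145 it fell from 5.84, 5.33 and 7.62 CPM (94, 86 and 125 counts) to 1.15, 1.76 and 0.84 CPM (19, 29 and 14 counts). This was the largest change among the 10 genes in that line, a log2 fold change of -2.30 ± 0.25 or 0.203-fold (edgeR adjusted p = 4.99e-07), and it ranged from -2.61 to -1.91 over 13 alternatives. C4-2 libraries were at 14.6 and 11.3 CPM with DMSO and at 11.1, 8.05 and 4.44 CPM with palbociclib. Palbociclib replicate 1 lay just below DMSO replicate 2, and palbociclib replicate 3 was far lower. The log2 fold change of -0.81 ± 0.26 (edgeR adjusted p = 0.00838) was -0.48 without palbociclib replicate 3 and not called (0.119), and was also not called without DMSO replicate 1 (0.129) or with DESeq2 (0.13). BMF shares 8.46% of its exon bases with BMF-AS1, which had 0 counts in all libraries. Where strand was not used, as in C4-2, reads in the shared bases may be counted for neither gene.

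BBC3 encodes PUMA and lies on chromosome 19 (47220822 to 47232766, minus strand). In C4-2 it was near the limit of detection, with 3 and 9 counts with DMSO (0.86 and 2.98 CPM) and 10, 11 and 19 counts with palbociclib (3.46, 4.22 and 5.62 CPM). The groups were apart, with a log2 fold change of 1.22 ± 0.48 (edgeR adjusted p = 0.0302), but the value rests on the DMSO library with 3 counts. Without that library it was 0.53 (adjusted p = 0.486), without DMSO replicate 2 it was 2.28, without palbociclib replicate 3 it was 0.99 and not called (0.12), and with DESeq2 it was not called (0.19). The DU145 libraries, which were counted separately, stood far higher, and the part of the counting in that gap was not tested. BBC3 there was at 23.0, 25.7 and 27.7 CPM with DMSO and 24.6, 25.6 and 32.1 CPM with palbociclib. Those groups overlapped, and the log2 fold change was 0.13 (95% interval -0.11 to 0.37; edgeR adjusted p = 0.335).

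BID links death receptors to the mitochondrion, since caspase 8 cleaves its protein into the active form, and its gene lies on chromosome 22 (17734138 to 17774770, minus strand). In C4-2 it was at 55.3 and 48.7 CPM with DMSO and at 40.1, 40.2 and 46.8 CPM with palbociclib, a log2 fold change of -0.34 ± 0.11 with no overlap (edgeR adjusted p = 0.0098). The call was lost with DESeq2 (adjusted p = 0.135) and without DMSO replicate 1 (0.179). DU145 showed no call, at 32.7, 34.1 and 36.7 CPM with DMSO and 34.4, 35.8 and 40.0 CPM with palbociclib (log2 fold change 0.12, 95% interval -0.07 to 0.30; edgeR adjusted p = 0.281).

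BIK (chromosome 22, 43110748 to 43129712, plus strand) had the fewest counts of the 10 genes over the C4-2 libraries, 3 and 5 with DMSO and 0, 1 and 1 with palbociclib, and did not pass the low-count filter there. Summed over libraries, that is 2 against 8 counts, a ratio of CPM of 0.183 with an exact 95% counting interval of 0.019 to 0.918. That interval holds no spread between libraries, and the fit without the filter did not call BIK (log2 fold change -2.32; edgeR adjusted p = 0.116). The DU145 libraries held 53, 54 and 53 counts with DMSO (3.29, 3.34 and 3.23 CPM) and 28, 23 and 23 with palbociclib (1.69, 1.40 and 1.38 CPM). BIK thus fell in DU145, with a log2 fold change of -1.12 ± 0.23 (0.461-fold; edgeR adjusted p = 0.000498) and no overlap, and kept the call in all 12 alternatives that tested it.

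BCL2L11, which encodes BIM and lies on chromosome 2 (111119378 to 111168447, plus strand), was at 21.8 and 22.9 CPM with DMSO and at 22.5, 20.7 and 18.6 CPM with palbociclib in C4-2. DU145 libraries were at 26.9, 22.5 and 22.4 CPM with DMSO and 24.3, 20.2 and 21.9 CPM with palbociclib. The groups overlapped in both lines. The log2 fold change was -0.17 in C4-2 (95% interval -0.49 to 0.15; edgeR adjusted p = 0.398) and -0.09 in DU145 (-0.31 to 0.13; 0.48), and no alternative called it. In GENCODE 29 it shares 10.9% of its exon bases with the antisense RNA gene MIR4435-2HG, which had 149 to 200 counts in C4-2 and 305 to 430 in DU145. Where strand was not used, as in C4-2, reads in the shared bases cannot be told apart and may be counted for neither gene.

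**Figure D3:**
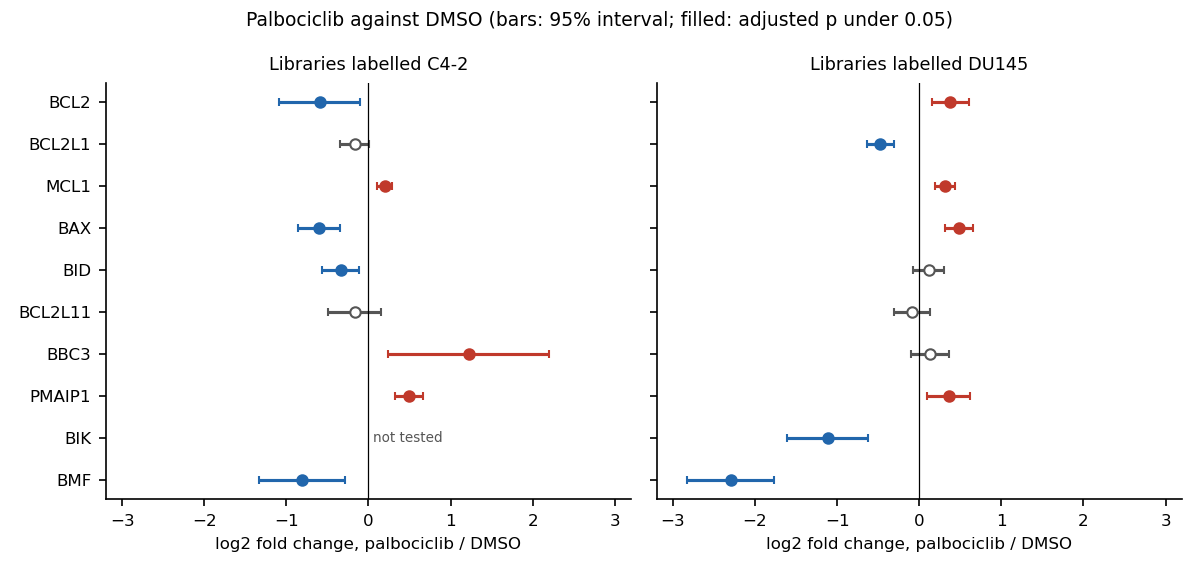
Log2 fold change of palbociclib over DMSO (x axis) with its 95% interval for each gene in the C4-2 and the DU145 libraries; filled points passed an adjusted p of 0.05, red higher and blue lower. BAX and BCL2 lie on opposite sides of 0 in the 2 panels, and BMF in DU145 lies farthest from 0, at -2.30.

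The test of the difference itself asked whether the palbociclib response of each gene differed between the lines, as the log2 fold change in DU145 minus that in C4-2 from a joint fit. It called 4 of the 10 genes, 3 with a higher change in DU145 and 1 with a lower change, where 33.4% of all 18139 tested genes were called (18.4% and 15%). BAX had the clearest difference, 1.12 ± 0.16 (SE; edgeR adjusted p = 1.06e-06), and it stayed between 1.02 and 1.20 in 18 alternatives. BCL2 followed with 1.01 ± 0.26 (edgeR adjusted p = 0.00243), not called without C4-2 DMSO replicate 1 (0.052). BID differed by 0.49 ± 0.16 (edgeR adjusted p = 0.0146), although its own change was called in C4-2 alone; without C4-2 palbociclib replicate 1 (0.0501) or C4-2 DMSO replicate 1 (0.155), and with library totals as the scaling (0.0528), the difference was not called. BMF fell in both lines and fell further in DU145, by a difference of -1.46 ± 0.41 (edgeR adjusted p = 0.00487), with the call lost without C4-2 palbociclib replicate 1 (0.0507).

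For the other 6 genes the difference was not called. Of the 2 genes that rose in both lines, MCL1 gave 0.15 (95% interval -0.02 to 0.31, edgeR adjusted p = 0.174). PMAIP1 gave -0.11 (-0.46 to 0.24, edgeR adjusted p = 0.71), an interval wider than the size of its change in either line. BCL2L11 gave 0.11 (-0.30 to 0.52; adjusted p = 0.755). BCL2L1 was called in DU145 alone, yet its difference of -0.27 (-0.53 to -0.01; edgeR adjusted p = 0.106) was not past the threshold; it was called with library totals (0.0219), with a stricter filter (0.0376) and without DU145 palbociclib replicate 1 (0.0426). BBC3 gave -1.07 (-2.10 to -0.04; edgeR adjusted p = 0.106), called without C4-2 DMSO replicate 2 (-2.15; 0.0299), without DU145 palbociclib replicate 3 (0.0394) and without both DU145 libraries numbered 3 (0.0324). BIK had too few counts in C4-2 for a useful value, 1.35 with a 95% interval of -0.76 to 3.46.

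**Figure D4:**
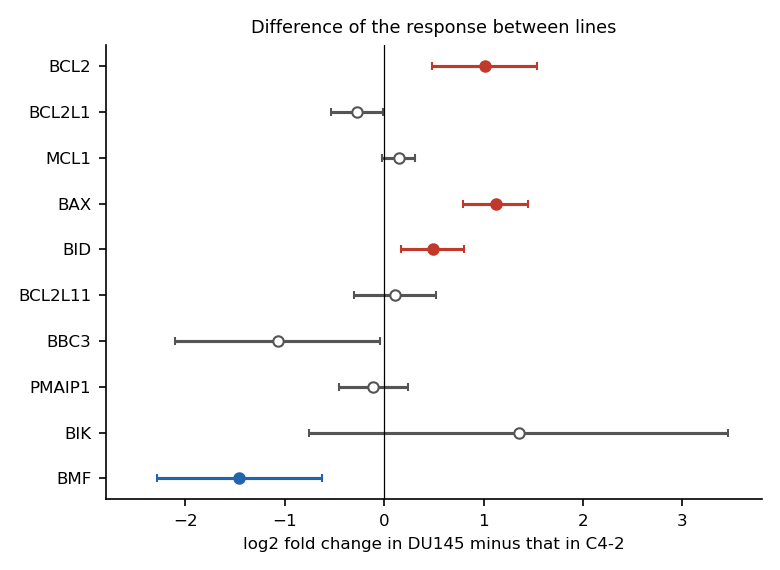
Difference of the palbociclib response, the log2 fold change in DU145 minus that in C4-2 (x axis), with its 95% interval for each gene; filled points passed an adjusted p of 0.05. BAX, BCL2 and BID lie above 0, at 1.12, 1.01 and 0.49, and BMF lies below, at -1.46.

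The rest of the apoptosis machinery was read through 5 lists with 72 genes. Of 13 other BCL2 family genes, 8 were tested in C4-2 with 2 higher and 3 lower (62.5% called against 51.8% of all tested genes, median log2 fold change -0.19 against 0.00), and 9 in DU145 with 2 higher and 5 lower (77.8% against 58.1%, median -0.28 against -0.01). BCL2L12 fell in C4-2 (-1.06 ± 0.18; edgeR adjusted p = 2.08e-06) and rose in DU145 (0.55 ± 0.10; 8.87e-05), as BAK1 did, and both differed between the lines (1.65 ± 0.21 and 1.11 ± 0.15). BOK, a BAX relative, fell in both (-0.44 and -0.41). BAD, a BH3-only gene whose protein is switched off by phosphorylation, fell in DU145 (-0.60 ± 0.10; edgeR adjusted p = 8.46e-05) and was at -0.47 ± 0.25 in C4-2 (0.114). BCL2L2, which encodes the antiapoptotic BCL-W, rose in C4-2 (0.36 ± 0.12, edgeR adjusted p = 0.0114), a call lost with DESeq2 (0.129). Without DMSO replicate 1 its change in C4-2 was only 0.23. In DU145, BCL2L2 was at -0.09 (edgeR adjusted p = 0.404). The BCL2L2 difference of -0.42 ± 0.16 was called (edgeR adjusted p = 0.0476), and that call was lost without the filter (0.101) and in other alternatives.

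Of 20 genes that act after BAX at the mitochondrion or in the caspase cascade, 19 were tested in C4-2 with 2 higher and 5 lower (36.8% called against 51.8% of all genes, median -0.10 against 0.00), and 20 in DU145 with 10 higher and 4 lower (70% against 58.1%, median 0.21 against -0.01). The caspase inhibitor BIRC2 rose in C4-2 (0.56 ± 0.07) and in DU145 (0.30 ± 0.09), with no call for the difference (edgeR adjusted p = 0.239). XIAP, another caspase inhibitor, rose in C4-2 (0.53 ± 0.08) and was at 0.18 ± 0.08 in DU145 (edgeR adjusted p = 0.0703). Without palbociclib replicate 3 it was called in DU145 (0.25, adjusted p = 0.005). The XIAP difference of -0.32 ± 0.12 was called (edgeR adjusted p = 0.0464). That call was lost without the filter (0.0981), without C4-2 palbociclib replicate 1 (0.1) and in other alternatives. BIRC5, which encodes survivin and is also a mitotic gene, fell in C4-2 (-1.07 ± 0.07) and rose in DU145 (0.37 ± 0.06), a difference of 1.47 ± 0.10 (edgeR adjusted p = 2.08e-13). CASP6, an executioner caspase, fell in both lines (-0.84 and -0.77). CYCS, which encodes cytochrome c, rose in DU145 (0.56 ± 0.07; edgeR adjusted p = 3.62e-06) and was called lower in C4-2 (-0.16 ± 0.06; 0.0281), where the call was lost with DESeq2 (0.206) and without palbociclib replicate 2 (0.151), palbociclib replicate 3 (0.0729) or DMSO replicate 1 (0.165). The channel gene VDAC2 and DFFA, the inhibitor of the caspase-activated nuclease, rose in DU145 (0.53 ± 0.06 and 0.73 ± 0.07) and were not called in C4-2 (-0.05 and -0.08). CASP9, the initiator caspase of the apoptosome, fell in DU145 (-0.35 ± 0.06; edgeR adjusted p = 0.000108) and was at 0.02 ± 0.22 in C4-2, with no call for the difference (0.232).

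Of 13 death receptor genes, 12 were tested in each line, with 6 higher and 1 lower in C4-2 (58.3% called against 51.8% of all genes, median 0.27) and 6 higher and 3 lower in DU145 (75% against 58.1%, median 0.18). TNFRSF10B, which encodes the TRAIL receptor DR5, rose in both (0.69 ± 0.06 and 0.52 ± 0.06), and TNFRSF1A, the TNF receptor, fell in both (-0.29 ± 0.06 and -0.47 ± 0.06). The ligand TNFSF10 (TRAIL) and the caspase 8 inhibitor CFLAR rose in C4-2 (0.77 ± 0.05 and 0.66 ± 0.07); in DU145, TNFSF10 did not pass the low-count filter and CFLAR was at -0.05 ± 0.09. TNFRSF10A, the receptor DR4, rose in DU145 (1.28 ± 0.09; edgeR adjusted p = 1.1e-09) and was at -0.37 ± 0.20 in C4-2 (0.111; called, at -0.58, without DMSO replicate 2), and its response differed between the lines by 1.68 ± 0.22 (2.03e-07).

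Of 16 transcription factors known to act on BCL2 family genes, 14 were tested in C4-2 with 6 higher and 2 lower (57.1% called against 51.8% of all genes, median 0.16), and 15 in DU145 with 7 higher and 6 lower (86.7% against 58.1%, median -0.05). ATF4 and DDIT3 (CHOP), stress-response factors known to raise PMAIP1, BBC3 and BCL2L11, rose in C4-2 and fell in DU145. ATF4 was at 283 CPM in both C4-2 DMSO libraries and at 416 to 457 CPM with palbociclib (log2 fold change 0.57 ± 0.05), and at 367 to 377 against 280 to 294 CPM in DU145 (-0.35 ± 0.06). DDIT3 changed by 1.88 ± 0.18 in C4-2 and -0.50 ± 0.09 in DU145, a difference of -2.35 ± 0.21 (edgeR adjusted p = 1.68e-10). PMAIP1 rose in both lines, and its difference of -0.11 was not called. The part of ATF4 and DDIT3 in the PMAIP1 values was not tested.

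E2F1, the RB1-controlled factor, fell in C4-2 (-2.18 ± 0.17) and, by less, in DU145 (-0.45 ± 0.07; edgeR adjusted p = 5.86e-05), with a difference between the lines of 1.77 ± 0.19 (4.96e-09). FOXO3, which acts on BCL2L11, rose in both lines (0.52 ± 0.07 in C4-2 and 0.62 ± 0.07 in DU145), and its difference was not called (edgeR adjusted p = 0.363). JUN, which also acts on BCL2L11, rose in DU145 (1.38 ± 0.10) and was called higher in C4-2 (0.13 ± 0.05; edgeR adjusted p = 0.0212), where the call was lost with DESeq2 (0.129) and without palbociclib replicate 2 (0.104), DMSO replicate 1 (0.131) or DMSO replicate 2 (0.063). BCL2L11 itself was not called in either line, and the part of FOXO3 and JUN in its values was not tested.

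Of 10 genes that control MCL1 or BH3-only proteins, all were tested in both lines, with 5 higher and 1 lower in C4-2 (60% called against 51.8% of all genes, median 0.16) and 3 higher and 1 lower in DU145 (40% against 58.1%, median 0.07). TRIB3, an ATF4 and DDIT3 target, rose in C4-2 (1.42 ± 0.07) and fell in DU145 (-1.30 ± 0.08), the largest difference among the list genes named here (-2.68 ± 0.12; edgeR adjusted p = 1.03e-17). USP9X, the deubiquitinase of MCL1, rose in C4-2 (0.28 ± 0.04) and was at -0.12 ± 0.06 in DU145 (edgeR adjusted p = 0.135), and DYNLL1, a dynein light chain that tethers BIM, fell in C4-2 (-0.38 ± 0.05) and rose in DU145 (0.26 ± 0.07). MARCHF5, a ubiquitin ligase of the mitochondrial surface, rose in both (0.32 ± 0.09 and 0.44 ± 0.07); in C4-2 DESeq2 gave the same size, 0.33, without the call (adjusted p = 0.0699).

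**Figure D5:**
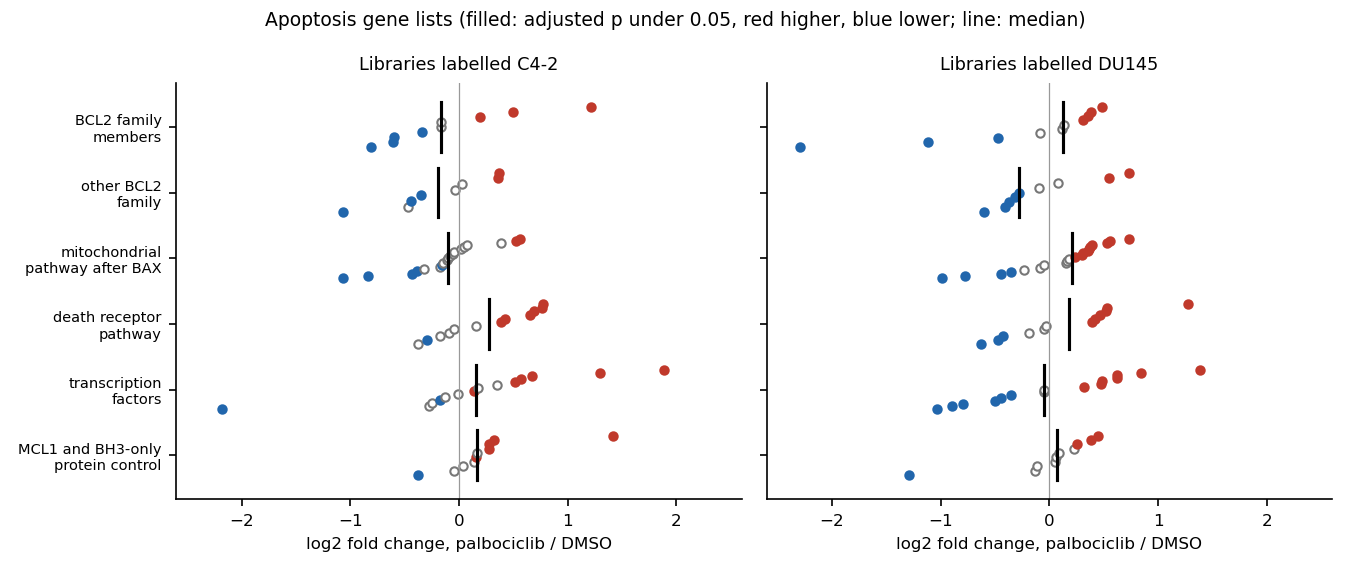
Log2 fold change of palbociclib over DMSO (x axis) for every tested gene of the 10 members and the 5 further apoptosis lists, in the C4-2 and DU145 libraries; filled points passed an adjusted p of 0.05, and the black line is the list's median. The median of the genes acting after BAX is -0.10 in C4-2 and 0.21 in DU145.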

How the data were processed

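The deposited values are raw read counts per gene, with a separate table for C4-2 and for DU145. Per the file headers, featureCounts 2.0.1 counted C4-2 read pairs by exon against Ensembl annotation 107 and no strand option was set, although the kit named in the labels is directional. How the DU145 reads were aligned and counted, and whether by strand, is not given in the sources used here. Gene coordinates are from the DU145 table, and hg38 is the build in the submitters' processing notes.

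Each line was fitted alone in edgeR 4.0.16 (R 4.3.3), with filterByExpr by group, TMM scaling, the quasi-likelihood F test and Benjamini-Hochberg adjustment at 0.05 over all tested genes. Raw counts of the 56747 genes in both tables were fitted jointly for the line-by-treatment difference. Standard errors (SE) were derived from each coefficient and its F value, and intervals are at the 95% level. CPM used library totals. Nothing in the labels says that libraries of a group were separate cultures, so the p-values may rest on technical spread. Pairs of the same group had a chi-square per degree of freedom of 1.14 to 1.18 in C4-2 and 2.36 to 8.34 in DU145. The C4-2 pairs thus lay close to counting noise, which is 1, though above it. These values do not tell whether the libraries were separate cultures. The fits were tested on simulated data. Alternatives were other scalings, filters, DESeq2 1.42.0, a replicate block and leaving out each library.

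The 10 genes and the lists were chosen with earlier results of these data known. All 10 are named, and from each list at most the 3 called genes with the smallest adjusted p per direction and comparison, plus BAK1, BCL2L2, DDIT3, ATF4 and TRIB3 whatever their result; a few genes that could be named are not reported here. Exon overlaps are from GENCODE 29, promoters from RefSeq. The empty C4-2 DMSO library was left out, so the C4-2 fit has 3 against 2 libraries.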

Additional observations from a re-analysis of the deposited data

Results flagged for a closer look

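For 4 of the 10 genes the test of the difference between the lines was past the threshold. Taken as DU145 minus C4-2, the difference of log2 fold changes was 1.12 for BAX and 1.01 for BCL2, whose transcripts fell in C4-2 and rose in DU145. It was 0.49 for BID, which fell in C4-2 and was not called in DU145, and -1.46 for BMF, which fell in both lines and further in DU145. The lines differ in depth, in how their tables were counted and in the number of DMSO libraries, and the part of these in the differences cannot be told apart from that of the line.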

How the results depend on the processing

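No alternative reversed a called change of the 10 genes. Calls kept in every alternative were those of MCL1, PMAIP1 and BAX in C4-2, of BCL2, BCL2L1, MCL1, BAX, BIK and BMF in DU145 (BIK was not tested under the stricter filter), and of BAX for the difference. With DESeq2, 3793 genes were called in C4-2 (1800 higher, 1993 lower) in place of 6184, and 3 of the 10 members (1 lower) in place of 7. Leaving out 1 library gave 3 to 7 called members in C4-2 (1 to 4 lower), with 4 without palbociclib replicate 3 and 3 without DMSO replicate 1. It gave 2 to 5 for the difference (1 to 3 higher, 0 to 2 lower), with 2 without C4-2 palbociclib replicate 1 or C4-2 DMSO replicate 1. For the difference, 2 members were lower with library totals, with the stricter filter and without replicate 3 of both DU145 groups. The uncalled PMAIP1 difference of -0.11 ranged from -0.238 to 0.0468 with 1 library left out, and was above 0 without DU145 DMSO replicate 2 (adjusted p = 0.898). Genes called also changed in number over all tested genes. Without C4-2 palbociclib replicate 1, 2 or 3, C4-2 had 5751 of 11850, 5637 of 11855 and 5654 of 11746 genes called. For the difference, 5505 of 17813 genes were called without C4-2 palbociclib replicate 1. Where 1 DMSO library was left in C4-2, it was assumed to vary like the other group. With the replicate number as a block, 4 members were called in C4-2 (2 lower), and BCL2 (adjusted p = 0.0794), BBC3 (0.131) and BMF (0.111) were lost; genes called went from 6184 to 5699 in C4-2 and from 8924 to 9953 in DU145. The correlation of same-numbered deviations was 0.02, 0.036 and 0.128 in DU145 and 0.0068 and 0.029 in C4-2. In DU145, palbociclib replicate 1 correlated best with DMSO replicate 2 (0.061). Palbociclib replicate 2 correlated nearly alike with DMSO replicates 1 and 2 (0.0364 and 0.0358). The DU145 libraries numbered 3 were at -0.0874 to -0.0503 with libraries of the other treatment under another number. Whether the numbers pair the libraries is therefore not settled. The cause of the changes in calls was not tested. Depth limits C4-2, where BIK and BBC3 had 0 to 19 counts per library.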
